A study of Mus musculus with 20 samples.

Results

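The nuclear genes for respiratory complexes III, IV and V were followed in macrophages. They were taken as every protein-coding gene whose symbol starts with Uqcr, Uqcc, Atp5 or Cox followed by a digit, together with Cyc1 and Cycs. The rule found 59 of the 56748 genes in each count table. They were 9 complex III subunits, 17 complex IV subunits, 17 complex V subunits, cytochrome c (Cycs), 13 assembly factors and 2 further entries, namely a second row for Atp5o without any count and Cox5b-ps, which carries a pseudogene name. Of the 59 in each count table, 54 had at least 10 counts in all libraries together and were tested. The second Atp5o row, Cox6b2, Cox7b2, Cox8b and Cox8c did not reach that count. The rule itself uses no measured value, though it was chosen with earlier results of these data known.

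Complex III passes electrons from ubiquinol to cytochrome c, complex IV (cytochrome c oxidase) passes them on to oxygen, and complex V (ATP synthase) uses the proton gradient so formed to make ATP. The catalytic core of complex IV is encoded by mitochondrial DNA, and the genes described here supply the nuclear-encoded subunits around it, the small subunits and core proteins of complex III, most of ATP synthase and the chaperones that insert haem, copper and the mitochondrially encoded subunits. Several subunits exist as isoforms from separate genes. Macrophages that are classically activated with lipopolysaccharide (LPS) and interferon-γ (IFNγ) induce Nos2, the gene of inducible nitric oxide synthase (iNOS), and are known for a shift away from respiration.

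RNA-seq counts were analysed from 20 libraries in 2 experiments. In the first, wildtype and iNOS KO cells were left unstimulated or were stimulated for 48 h with 50 ng/mL LPS and 30 ng/mL IFNγ, with 3 libraries in each of the 4 groups. The labels name these cells bone marrow-derived macrophages (BMDM) from C57BL/6J mice of 6 to 12 weeks and either sex, whereas the study's methods name RAW264.7, a mouse macrophage-like line, for the iNOS sequencing. They are called BMDM-labelled here, and the methods pool bone marrow by genotype, so the letters A to C need not be separate animals. For BMDMs the methods name C57BL/6J mice for wildtype and B6.129P2-Nos2tm1Lau/J mice for iNOS KO. The lowest age they give is above that of the labels. If the cells were BMDMs, strain background and genotype cannot be told apart. The dose of 30 ng/mL IFNγ is the one the methods give for BMDMs, and for RAW264.7 cells they give 10 ng/mL. In the second experiment, wildtype and Akr1a1 KO RAW264.7 cells were left unstimulated or were stimulated for 48 h with LPS at 50 ng/mL and IFNγ at 10 ng/mL, each group being 2 libraries. By the methods the libraries of each group were independent clones, and the Akr1a1 KO lines were made by CRISPR-Cas9. Akr1a1 encodes an aldo-keto reductase that also reduces S-nitroso-coenzyme A. The labels give no further agent or allele to any of these groups.

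Total counts per library ran from 15072109 to 18878107 in the BMDM-labelled table and from 11876719 to 44583327 in the RAW264.7 table. Nos2 went with the labels of the first experiment, with 149748 to 170818 counts in the stimulated wildtype libraries, 12352 to 15278 in the stimulated iNOS KO libraries and 0 in the unstimulated iNOS KO libraries. Akr1a1 was lower in the Akr1a1 KO libraries (21.8 to 370 CPM) than in wildtype RAW264.7 libraries (427 to 675 CPM), without overlap, and was not absent from any of them. Replicate B of both unstimulated RAW264.7 groups is titled as stimulated, while its treatment field and library name say unstimulated. Nos2 was at 30.7 and 38.1 CPM in these libraries against 4160 to 8810 CPM in the stimulated RAW264.7 libraries, which goes with the treatment field. Counts of called members are given with and without them. Replicate B of the stimulated iNOS KO group stood apart from A and C, with a chi-square per gene of 28.8 and 36.8 against 6.61 between A and C. Counts below are given without it where they move. The 2 libraries of a RAW264.7 group were also far apart, at 68.6 in stimulated and 30 in unstimulated wildtype. In stimulated and unstimulated Akr1a1 KO the values were 39.2 and 15.5. With 2 libraries a group, it cannot be told which of them deviates. All 6 macrophage markers were expressed in every group, with sums of at least 2765 CPM (counts scaled to a library's depth with TMM factors). In BMDM-labelled libraries the sum was 6724 to 7107 CPM in unstimulated wildtype and 4549 to 4813 in unstimulated iNOS KO. After stimulation it was 6198 to 6940 CPM in wildtype and 9489 to 9888 in iNOS KO. Single markers were divided after stimulation, with 2 of the 6 called higher and 2 lower in iNOS KO against wildtype (median log2 fold change 0.0464). Before stimulation 0 were called higher and 5 lower (median -0.577). The sums therefore do not stand for every marker, and the part of these differences in the results below was not tested. The sums for 4 lymphocyte and 4 neutrophil markers were at most 0.485 and 1.54 CPM. Of the fibroblast markers Dcn reached 10.3 to 15.5 CPM in stimulated iNOS KO libraries and 2.23 to 2.57 CPM in stimulated wildtype libraries. Between these groups 1 of the 2 fibroblast markers tested was called higher in iNOS KO and 1 was called lower. The sum of all 4 fibroblast markers was 10.4 to 15.8 CPM in stimulated iNOS KO and 3.58 to 4.92 CPM in stimulated wildtype. The part of these markers in the results below was not tested.

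Stimulated iNOS KO cells held more mRNA for most subunits of complexes III and V than stimulated wildtype cells did, and less for a group of complex IV assembly factors. Of the 54 tested genes 30 were higher in the iNOS KO and 7 were lower at an adjusted p under 0.05 (edgeR's quasi-likelihood test, Benjamini-Hochberg over all 18691 genes tested). Across all genes tested 24.2% were called higher and 24.2% lower, and among well expressed protein-coding genes (mean log2 CPM over 5) the shares were 38% and 33.6%, with 25 and 2 of the 39 such members. Complex V gave 13 higher and 0 lower of 17, complex III 7 and 0 of 9, complex IV 5 and 1 of 13, and the assembly factors 3 and 6 of 13. Median log2 fold changes were 0.38 in complex V, 0.48 in complex III, 0.27 in complex IV and 0.062 in assembly factors, against -0.044 over all genes tested. Without replicate B of the stimulated iNOS KO group the counts were 31 and 7, and with these 2 groups fitted alone they were 30 and 3. In bulk RNA, a change in the mix of cells and a change in the RNA of each cell cannot be told apart.

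**Figure D1:**
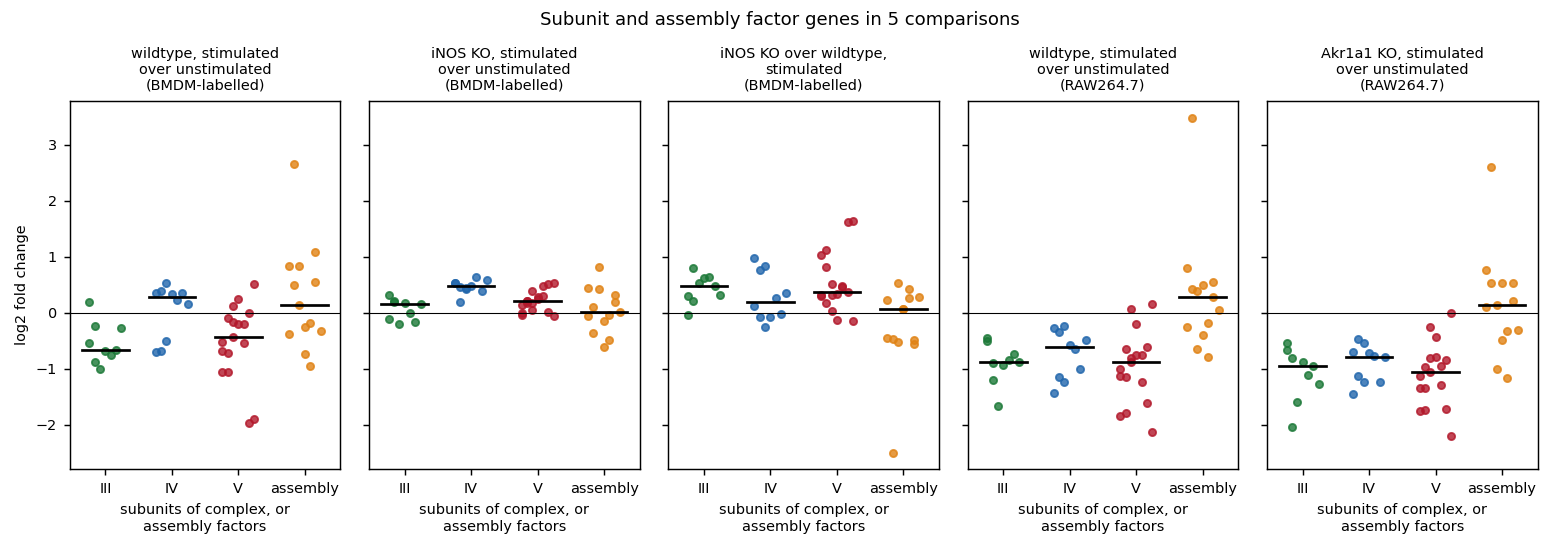
Each point is the log2 fold change (vertical axis) of 1 gene in 1 comparison, grouped along the horizontal axis into subunits of complexes III, IV and V and assembly factors, with the class median as a black line. The low isoforms Cox4i2, Cox6a2 and Cox7a1 and cytochrome c are left out, which leaves 10 complex IV subunits. Subunits of III and V lay mostly below 0 in stimulated wildtype cells and mostly above 0 where stimulated iNOS KO was compared with stimulated wildtype.

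The largest increases among members called higher were those of Atp5g2, Atp5g1, Atp5o and Atp5g3, all of ATP synthase. Subunit c, which forms the rotor ring through which protons pass, is encoded by 3 genes, Atp5g1, Atp5g2 and Atp5g3, whose mature proteins are identical and whose targeting peptides differ. Atp5g1 was at 58.2, 52.3 and 42.7 CPM before and 10.7, 12.4 and 16.0 CPM after stimulation in wildtype, and 38.2, 41.6 and 39.3 CPM before and 33.6, 44.6 and 42.1 CPM after it in iNOS KO libraries (A, B and C in that order). The stimulated wildtype libraries lay below all 9 others. Stimulated iNOS KO exceeded stimulated wildtype by a log2 fold change of 1.62 ± 0.15 (adjusted p = 8.69e-08), or 3.08-fold, where ± gives the standard error for this and every other log2 value.

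Atp5g2 showed the same order, at 134, 132 and 132 CPM before and 29.2, 38.6 and 38.8 CPM after stimulation in wildtype, and 111, 118 and 116 CPM before and 106, 119.9 and 106 CPM after it in iNOS KO libraries. Its log2 fold change between stimulated genotypes was 1.64 ± 0.094 (adjusted p = 2.81e-10). Atp5g3, the most abundant of the 3 per length, was at 249, 241 and 252 CPM before and 107, 123 and 126 CPM after stimulation in wildtype, and 222, 223 and 221 CPM before and 235, 261 and 237 CPM after it in iNOS KO libraries. For Atp5g3 the log2 fold change was 1.04 ± 0.070 (adjusted p = 1.91e-09). In all 3 genes every stimulated wildtype library was lower than every other BMDM-labelled library.

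The start regions of these genes are shown because the 3 c-subunit genes and Atp5o moved together while the assembly factors Cox14 and Cox20 went the other way. Each is the RefSeq window from 250 bases before to 50 bases after the gene's start, written 5′ to 3′ on the gene's own strand, in GRCm38.p6. Capitals mark GCGCANGCG, the core of the motif bound by nuclear respiratory factor 1 (NRF1), CCGGAAG, a motif of ETS factors, and AAGATGGC, a motif of YY1, on either strand. The windows are chr11:96075582-96075881 for Atp5g1, chr15:102670998-102671297 for Atp5g2, chr2:73911277-73911576 for Atp5g3 and chr16:91931581-91931880 for Atp5o, all on the minus strand, and chr15:99725368-99725667 for Cox14 and chr1:178318903-178319202 for Cox20 on the plus strand.
Atp5g1: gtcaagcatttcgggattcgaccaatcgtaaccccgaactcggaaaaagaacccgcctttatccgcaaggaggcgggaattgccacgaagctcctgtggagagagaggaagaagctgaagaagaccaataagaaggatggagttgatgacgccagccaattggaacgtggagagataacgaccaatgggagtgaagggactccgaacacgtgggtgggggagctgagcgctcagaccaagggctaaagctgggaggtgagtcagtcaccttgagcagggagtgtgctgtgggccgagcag
Atp5g2: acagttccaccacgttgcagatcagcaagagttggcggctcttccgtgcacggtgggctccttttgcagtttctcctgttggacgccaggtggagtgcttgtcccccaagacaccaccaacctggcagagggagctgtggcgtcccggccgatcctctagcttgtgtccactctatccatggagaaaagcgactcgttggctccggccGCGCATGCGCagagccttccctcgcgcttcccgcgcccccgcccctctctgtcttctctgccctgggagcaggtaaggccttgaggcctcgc
Atp5g3: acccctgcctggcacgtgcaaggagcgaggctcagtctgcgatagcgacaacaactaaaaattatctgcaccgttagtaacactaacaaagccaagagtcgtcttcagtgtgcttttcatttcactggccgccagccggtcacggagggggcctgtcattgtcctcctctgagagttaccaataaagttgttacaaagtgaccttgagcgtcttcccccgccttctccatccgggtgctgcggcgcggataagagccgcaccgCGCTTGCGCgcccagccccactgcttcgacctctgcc
Atp5o: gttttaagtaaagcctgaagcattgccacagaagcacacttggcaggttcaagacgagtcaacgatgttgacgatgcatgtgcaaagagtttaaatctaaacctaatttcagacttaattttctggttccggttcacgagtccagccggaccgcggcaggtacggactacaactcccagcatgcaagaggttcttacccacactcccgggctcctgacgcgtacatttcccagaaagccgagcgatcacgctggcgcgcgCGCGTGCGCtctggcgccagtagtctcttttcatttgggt
Cox14: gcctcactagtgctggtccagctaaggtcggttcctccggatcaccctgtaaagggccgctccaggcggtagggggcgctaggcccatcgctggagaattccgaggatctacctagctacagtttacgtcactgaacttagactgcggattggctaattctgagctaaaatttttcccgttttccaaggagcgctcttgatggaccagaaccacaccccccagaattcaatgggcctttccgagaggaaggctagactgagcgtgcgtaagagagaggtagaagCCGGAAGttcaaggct
Cox20: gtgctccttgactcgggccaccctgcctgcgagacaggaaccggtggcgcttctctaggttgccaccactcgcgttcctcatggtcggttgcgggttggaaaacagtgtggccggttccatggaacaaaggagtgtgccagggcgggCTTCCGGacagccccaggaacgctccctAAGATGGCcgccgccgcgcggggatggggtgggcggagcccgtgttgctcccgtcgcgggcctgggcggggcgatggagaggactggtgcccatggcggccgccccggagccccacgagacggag

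The NRF1 letters stood in the Atp5g2, Atp5g3 and Atp5o windows, with 2 overlapping matches in Atp5g2, and not in those of Atp5g1, Cox14 and Cox20. The ETS letters stood in the Cox14 and Cox20 windows, and Cox20 also held the YY1 letters. The windows of Cox11, Cox19 and Uqcc3, also called lower in stimulated iNOS KO cells, held no ETS letters. Those of Cox10, Cox15 and Cox16, which were not called, did hold them. RefSeq windows were at hand for 44 of the 58 member symbols, 48 windows in all. NRF1 letters were in 25% of them against 6.25% of all 32851 promoter windows, ETS letters in 35.4% against 8.86%, and YY1 letters in 12.5% against 2.75%. By class, NRF1 letters were in 10 of 35 subunit windows and 1 of 12 assembly factor windows, and ETS letters were in 11 and 6. ACGTG, the core of the hypoxia response element, was in 29.2% of member windows and 19.6% of all windows. Of the windows printed above, where it is not marked, those of Atp5g1, Atp5g2 and Atp5g3 held it. Those of Atp5o, Cox14 and Cox20 did not. These are matches of letters and say nothing on whether a factor bound there.

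Atp5o, which encodes the oligomycin sensitivity-conferring protein of the stalk, lay between Atp5g1 and Atp5g3. Its values were 77.6, 79.7 and 87.2 CPM before and 39.0, 40.6 and 38.1 CPM after stimulation in wildtype, and 72.9, 75.8 and 70.9 CPM before and 78.5, 95.4 and 82.2 CPM after it in iNOS KO libraries, and the log2 fold change between stimulated genotypes was 1.12 ± 0.082 (adjusted p = 5.5e-09). Atp5h (subunit d) followed at 0.82 ± 0.066 (adjusted p = 2.01e-08). The remaining called subunits were Atp5j, Atp5k, Atp5e, Atp5l, Atp5j2, Atp5a1, Atp5c1 and Atp5b, with log2 fold changes from 0.18 for Atp5b, the catalytic β subunit, to 0.52 for Atp5j, coupling factor 6. Atp5mpl (0.29), Atp5pb (0.037), Atp5d (-0.12) and Atp5md (-0.14) did not pass the test. Thus the α and β subunits that form the catalytic head differed by 0.33 and 0.18 on the log2 scale, against 1.04 to 1.64 for the c-ring genes.

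In complex III the largest difference was in Uqcrq, which encodes a small ubiquinone-binding subunit. Uqcrq was at 121, 115 and 122 CPM before and 57.1, 70.5 and 66.3 CPM after stimulation in wildtype, and 91.7, 99.0 and 98.5 CPM before and 107, 122 and 107 CPM after it in iNOS KO libraries. The stimulated genotypes did not overlap, and iNOS KO was higher by 0.79 ± 0.083 (adjusted p = 4.84e-07) on the log2 scale. The core proteins Uqcrc1 (0.64) and Uqcrc2 (0.48), the Rieske iron-sulfur protein Uqcrfs1 (0.31), cytochrome c1 (Cyc1, 0.30), Uqcr11 (0.54) and Uqcrb (0.62) were also called higher. Uqcrb overlapped between the groups, since replicate B of the stimulated iNOS KO group was at 19.8 CPM against 37.2 and 43.2 in A and C. Uqcr10 (0.21, adjusted p = 0.0766) and the hinge protein Uqcrh (-0.031, adjusted p = 0.74) were not called. Cycs, the mobile carrier between complexes III and IV, was at 103, 117 and 119.8 CPM in stimulated wildtype and 198, 163 and 199 in stimulated iNOS KO libraries, which was 0.72 ± 0.080 (adjusted p = 9.71e-07) on the log2 scale. Before stimulation the level of Cycs was 129, 125 and 127 CPM in wildtype libraries and 119, 121 and 122 CPM in iNOS KO libraries.

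Complex IV was divided. Cox4i1, the common isoform of subunit IV, was at 371, 352 and 375 CPM before and 199, 238 and 242 CPM after stimulation in wildtype, and 301, 313 and 305 CPM before and 417, 493 and 423 CPM after it in iNOS KO libraries. Stimulated iNOS KO libraries were the highest and stimulated wildtype libraries the lowest of the 12, and the log2 fold change between them was 0.97 ± 0.080 (adjusted p = 2.36e-08). Cox5b (0.84), Cox7c (0.77), Cox7a2 (0.35) and Cox6b1 (0.27) were higher too. Cox5b-ps was called at 0.87 and can share reads with Cox5b. Against these, Cox8a was lower in the iNOS KO, with a log2 value of -0.26 ± 0.072 (adjusted p = 0.00646) and 238, 263 and 274 CPM in stimulated wildtype and 204, 238 and 205 in stimulated iNOS KO, and replicate B of the KO overlapped the lowest wildtype library. With library totals in place of the TMM factors used here it was no longer called. Cox5a (-0.075), Cox6a1 (-0.075), Cox6c (-0.029) and Cox7b (0.13) were not called.

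**Figure D2:**
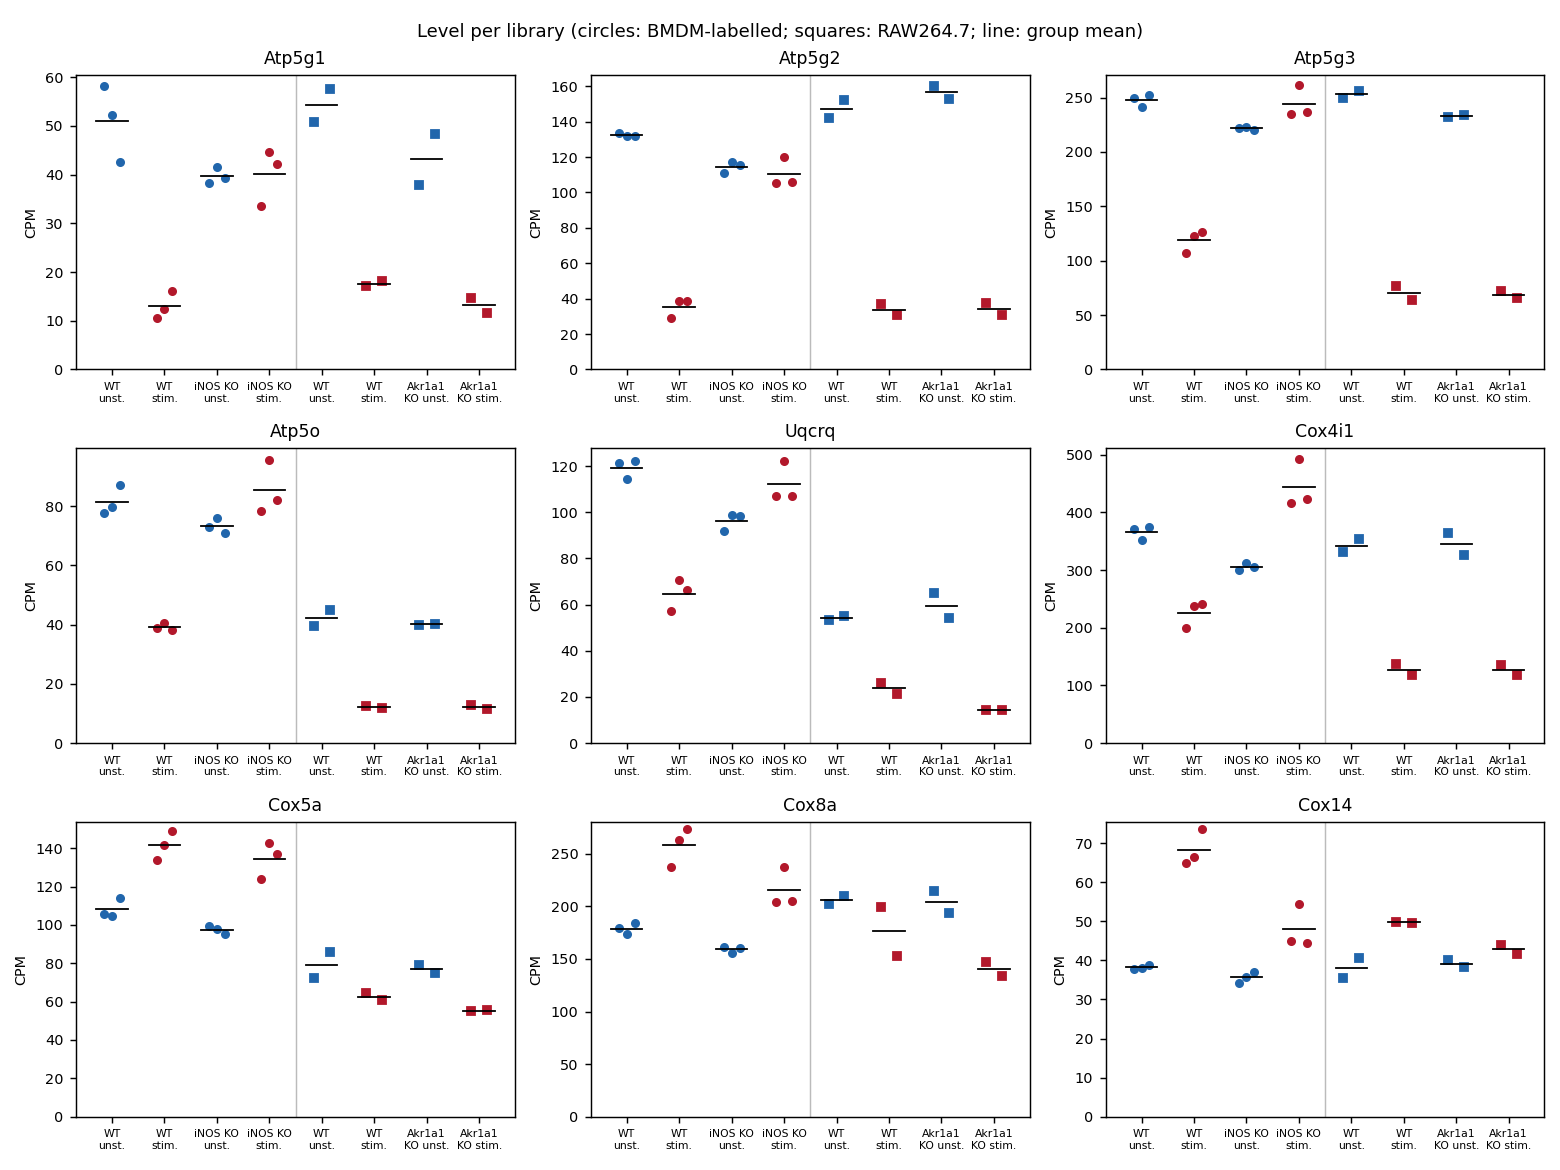
Level in CPM (vertical axis, from 0) of 9 genes in each library, by group along the horizontal axis, unstimulated in blue and stimulated in red, with the group mean as a line. Atp5g1, Atp5g2, Atp5g3, Atp5o, Uqcrq and Cox4i1 are lowest in stimulated wildtype among BMDM-labelled groups, whereas Cox5a, Cox8a and Cox14 are above both unstimulated groups there.

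The assembly factors called lower in stimulated iNOS KO cells were Cox11, Cox14, Cox17, Cox19 and Cox20 of complex IV and Uqcc3 of complex III. With the stimulated groups fitted alone Cox14, Cox19 and Cox20 were still called, whereas Cox11 (adjusted p = 0.0509), Cox17 (0.0998) and Uqcc3 (0.0684), and the subunit Cox8a (0.118), were not. Cox11, Cox17 and Cox19 act in the delivery of copper, Cox14 in the handling of newly made core subunit, and Cox20 as a chaperone of the copper-binding core subunit. Cox14 was at 37.9, 38.0 and 38.9 CPM before and 65.0, 66.6 and 73.6 CPM after stimulation in wildtype, and 34.3, 35.8 and 37.1 CPM before and 45.1, 54.4 and 44.4 CPM after it in iNOS KO libraries. Stimulated wildtype stood above every other library, and the log2 fold change of stimulated iNOS KO against wildtype was -0.51 ± 0.085 (adjusted p = 7.54e-05).

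Cox19 had 31.9, 35.5 and 33.6 CPM in stimulated wildtype and 22.7, 29.3 and 21.7 in stimulated iNOS KO, a log2 fold change of -0.46 ± 0.11 (adjusted p = 0.00165). Cox11 had 13.6, 9.99 and 13.2 CPM in stimulated wildtype against 8.68, 8.72 and 9.01 CPM in iNOS KO, with -0.47 ± 0.13 (adjusted p = 0.00663). Uqcc3 had 16.0, 20.5 and 18.7 CPM in stimulated wildtype against 8.74, 14.7 and 14.3 CPM in iNOS KO, with -0.55 ± 0.17 (adjusted p = 0.0142). In all 3 the groups did not overlap. Cox17 was also lower, at -0.48 ± 0.19 (adjusted p = 0.0473). Cox20 was low, with raw counts of 7, 7 and 4 before and 20, 47 and 25 after stimulation in wildtype, and 11, 9 and 9 before and 4, 1 and 12 after it in iNOS KO libraries, and a log2 fold change of -2.50 ± 0.48 (adjusted p = 0.000328). It overlaps Hnrnpu on the opposite strand, which held 130515 counts over the 12 libraries against 156 for Cox20, and whether the reads were counted by strand is not given in the sources used here. The same limit holds for Cox11, which overlaps Tom1l1 on the opposite strand (10356 counts against 1925 for Cox11).

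Not every assembly factor moved this way. Cox7a2l, which helps to join complexes III and IV into supercomplexes, was at 130.4, 138 and 142 CPM in stimulated wildtype and 189.8, 218 and 188 in stimulated iNOS KO, higher by 0.54 ± 0.072 (adjusted p = 7.52e-06), after 119, 124 and 129 CPM in unstimulated wildtype and 107, 118 and 113 in unstimulated iNOS KO. Uqcc2 (0.43), needed for cytochrome b, and Cox18 (0.28), which inserts a core subunit into the membrane, were also called higher. Cox10 (0.24) and Cox15 (0.075), the enzymes of haem A synthesis, Cox16 (0.27) and Uqcc1 (0.062) were not called.

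The response to LPS and IFNγ was then compared within each genotype. In wildtype cells 17 members rose and 29 fell, beside 32.4% and 28.5% of all genes tested. In iNOS KO cells 26 rose and 3 fell, beside 27.3% and 24.6%. Among well expressed protein-coding genes 43.1% rose and 38.7% fell in wildtype, with 11 and 21 of the 39 such members. In iNOS KO cells these shares were 43% and 30.8%, with 24 and 2 of the 39. Without replicate B of the stimulated iNOS KO group 5 calls were gained and 0 lost in wildtype, and 4 were gained and 3 lost in iNOS KO cells. The directions of the changes on stimulation depend on the scaling. With library totals in place of TMM factors the median log2 fold change of all genes moved by -0.46 in wildtype and by -0.41 in iNOS KO, and the members called became 4 higher and 41 lower in wildtype and 4 higher and 26 lower in iNOS KO. The comparison of stimulated genotypes moved little, with 36 higher and 5 lower on library totals. Changes on stimulation are therefore given as TMM-scaled values, relative to a median over all genes tested of 0.071 in wildtype and -0.00032 in iNOS KO.

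**Figure D3:**
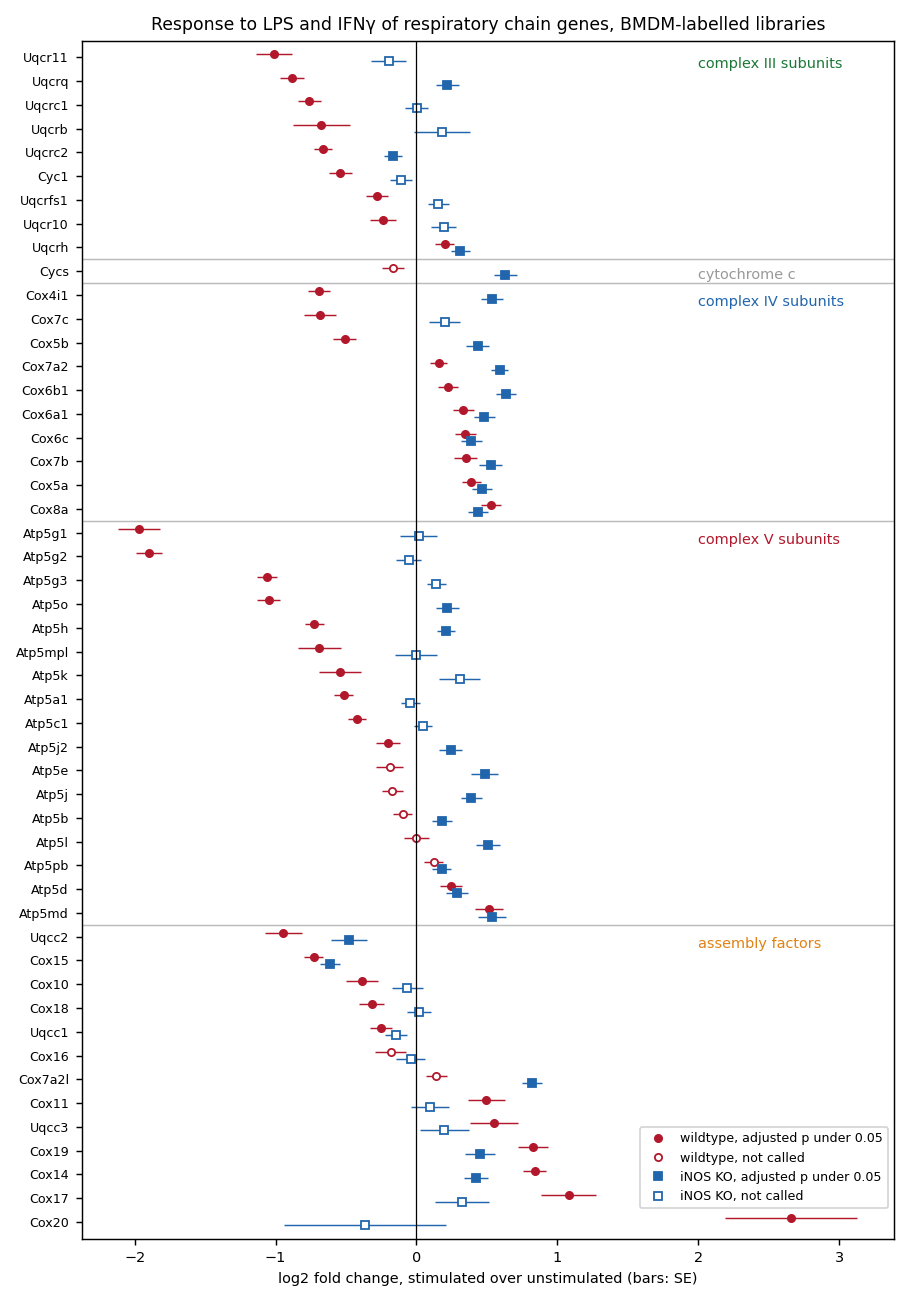
Log2 fold change on stimulation (horizontal axis, bars are SE) of each gene (vertical axis, by class) in wildtype (red circles) and iNOS KO cells (blue squares) of the BMDM-labelled experiment, filled where the adjusted p is under 0.05. Most subunits of complexes III and V have wildtype values left of 0 and iNOS KO values near or right of 0, while with library totals 26 iNOS KO values were called lower.

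In wildtype cells the largest falls among subunits with a mean log2 CPM over 3 were those of Atp5g1 (-1.97 ± 0.15, adjusted p = 2.85e-09), Atp5g2 (-1.90 ± 0.094, adjusted p = 1.39e-11) and Atp5g3 (-1.06 ± 0.070, adjusted p = 5.71e-10), with Atp5o (-1.05), Uqcr11 (-1.01) and Uqcrq (-0.88) after them. Complex III gave 8 of 9 subunits lower, complex V 10 of 17 and complex IV 5 of 13. In iNOS KO cells Atp5g1 (0.015), Atp5g2 (-0.055) and Atp5g3 (0.14) were not called, and among subunits Uqcrc2 (-0.17 ± 0.062, adjusted p = 0.033) was the only one called lower. Its values were 161, 173 and 159 CPM in unstimulated and 142, 155 and 142 in stimulated iNOS KO libraries, against 166, 163 and 168 CPM before and 107, 102 and 105 CPM after in wildtype.

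Of the 39 subunits 11 were called higher on stimulation in wildtype, no more than the 32.4% of all genes and 43.1% of well expressed genes. In iNOS KO cells it was 21, beside 27.3% and 43%. The subunits called higher in both were Cox5a, Cox6a1, Cox6b1, Cox6c, Cox7a2, Cox7b and Cox8a of complex IV, Uqcrh of complex III, and Atp5d and Atp5md of complex V. The share of all genes called higher in both is not given here, so these are not read as a distinct group. With library totals, each of these but Cox8a and Atp5md turned negative in wildtype, and in iNOS KO cells Cox6c, Uqcrh and Atp5d did. Cox8a was at 179, 173 and 184 CPM in unstimulated and 238, 263 and 274 in stimulated wildtype, which was 0.53 ± 0.072 (adjusted p = 5.88e-06) on the log2 scale, while unstimulated iNOS KO libraries held 161, 156 and 161 CPM. The other log2 fold changes in wildtype ran from 0.16 for Cox7a2 to 0.51 for Atp5md. The largest rises in iNOS KO cells were in Cox7a2l (0.82 ± 0.072, adjusted p = 4.52e-08), Cox6b1 (0.63 ± 0.070, adjusted p = 8.5e-07) and Cycs (0.63 ± 0.079, adjusted p = 3.77e-06), of which Cox7a2l and Cycs were not called in wildtype (0.14 and -0.17).

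Among the 13 assembly factors, 6 rose and 5 fell in wildtype cells, beside 32.4% and 28.5% of all genes tested. These counts are near the 43.1% and 38.7% of well expressed protein-coding genes, so they do not set the class apart. The rises were Cox20, Cox17 (1.08), Cox14 (0.84 ± 0.085, adjusted p = 1.68e-07), Cox19 (0.83 ± 0.11, adjusted p = 2.88e-06), Uqcc3 (0.55 ± 0.17, adjusted p = 0.0103) and Cox11 (0.50). Before stimulation Cox19 was at 18.7, 18.8 and 19.4, Uqcc3 at 14.3, 10.6 and 12.7 and Cox11 at 9.12, 7.50 and 9.39 CPM in wildtype, each below its stimulated values. Unstimulated iNOS KO libraries held 17.9, 19.2 and 16.7 CPM of Cox19, 9.49, 12.4 and 10.9 of Uqcc3 and 8.86, 8.11 and 7.76 of Cox11. The falls were Uqcc2 (-0.95), Cox15 (-0.73), Cox10 (-0.39), Cox18 (-0.32) and Uqcc1 (-0.25).

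Cox15 and Uqcc2 also fell in iNOS KO cells. Cox15 went from 76.0, 78.4 and 79.5 to 43.2, 47.7 and 50.0 CPM in wildtype and from 76.5, 73.1 and 77.4 to 51.2, 48.3 and 48.9 CPM in iNOS KO cells (-0.61 ± 0.070, adjusted p = 1.15e-06), so both stimulated groups overlapped. Uqcc2 went from 32.8, 31.6 and 31.8 to 12.1, 18.1 and 19.7 CPM in wildtype and from 29.9, 32.0 and 31.8 to 24.0, 23.4 and 19.9 CPM in iNOS KO cells (-0.48 ± 0.13, adjusted p = 0.00478). Without replicate B of the stimulated iNOS KO group 6 members, rather than 3, were called lower on stimulation in that genotype.

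The difference of both responses was tested directly as the genotype by stimulation interaction, in which a positive value means that iNOS KO cells changed upwards relative to wildtype. It was called positive for 31 members and negative for 3, beside 20.0% and 15.4% of all genes tested. Among well expressed protein-coding genes the shares were 35.2% and 23.4%, with 27 and 1 of the 39 such members. Positive calls covered 14 of 17 complex V subunits, 8 of 9 complex III subunits and 5 of 13 complex IV subunits. The largest were Atp5g1 (1.99 ± 0.20, adjusted p = 5.45e-07), Atp5g2 (1.84 ± 0.13, adjusted p = 7.47e-09) and Atp5o (1.27 ± 0.11, adjusted p = 1.37e-07), with Cox4i1 at 1.23. The negative calls were Cox14 (-0.42 ± 0.12, adjusted p = 0.0122), Cox17 (-0.76) and Cox20 (-3.03), all of them assembly factors. For Cox5a (0.074), Cox6a1 (0.15), Cox6c (0.044), Cox7b (0.18) and Cox8a (-0.094) the responses of both genotypes did not differ past the threshold.

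Before stimulation the genotypes were closer. No member was called higher in unstimulated iNOS KO cells, with 0 at an unadjusted p under 0.05 and 0 by DESeq2, and 1 was called lower, beside 1.88% and 4.09% of all genes tested. That gene was Uqcrq, at -0.31 ± 0.081 (adjusted p = 0.0319). Of all 54, 50 log2 fold changes were negative, their median was -0.125 against -0.012 over all genes, and 18 had an unadjusted p under 0.05. Without replicate B of the stimulated iNOS KO group, which enters this fit through the shared dispersion, 16 members were called lower, and 14 were with the unstimulated groups fitted alone. With any 1 unstimulated library of these groups left out, none was.

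The isoform groups were read as shares of their summed CPM per kb of gene length. Atp5g3 gave 55.9% ± 0.87 (SD, n = 3) of the c-subunit sum in unstimulated wildtype, 69.6% ± 1.6 in stimulated wildtype, 57.1% ± 0.77 in unstimulated iNOS KO and 60.2% ± 0.46 in stimulated iNOS KO. The Atp5g2 share was 39% ± 0.34, 27% ± 1.4, 38.4% ± 0.66 and 35.4% ± 0.32 in the same order, and that of Atp5g1 was between 3.07% and 5.75% in every library. Without division by gene length the mean Atp5g1 share was 11.8% in unstimulated and 7.74% in stimulated wildtype and 10.5% and 10.1% in iNOS KO, and that of Atp5g3 was 57.5% and 71.1% in wildtype and 59% and 61.9% in iNOS KO. So the stimulated wildtype libraries, whose c-subunit sum was lowest, also had the highest Atp5g3 share of the 12, with no overlap.

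**Figure D4:**
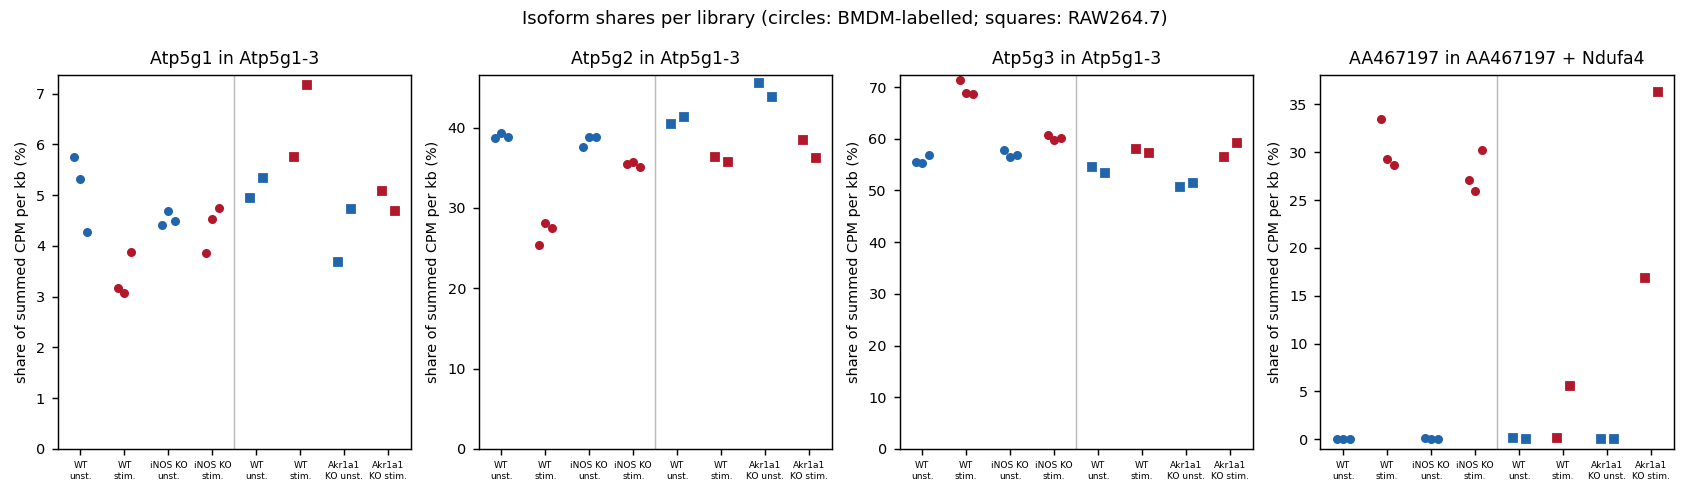
Share in percent (vertical axis) of the summed CPM per kb that each c-subunit gene held among Atp5g1, Atp5g2 and Atp5g3, and that AA467197 held of its sum with Ndufa4, per library and group (horizontal axis), unstimulated in blue and stimulated in red. Atp5g3 reached 68.7% to 71.4% in stimulated wildtype BMDM-labelled libraries, and AA467197 rose from near 0 to 25.9% or more in the stimulated BMDM-labelled libraries.

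In complex IV the common isoforms held nearly the whole of each sum. Cox4i2, the hypoxia-associated isoform of subunit IV, held at most 0.95% of the Cox4i sum in the BMDM-labelled libraries (a mean of 0.577% in stimulated wildtype, or 0.295% without division by gene length), with raw counts of 5, 4 and 1 before and 14, 8 and 6 after stimulation in wildtype, and 3, 5 and 4 before and 9, 4 and 0 after it in iNOS KO. The heart and muscle isoform Cox6a2 had raw counts of 26, 21 and 11 before and 0, 2 and 4 after stimulation in wildtype, and 14, 11 and 10 before and 5, 5 and 5 after it in iNOS KO. Raw counts of Cox7a1, also of heart and muscle, were 23, 22 and 21 before and 2, 9 and 3 after stimulation in wildtype, and 43, 12 and 16 before and 10, 3 and 10 after it in iNOS KO. At these counts Cox6a2 and Cox7a1 were lower and Cox4i2 was higher on stimulation in wildtype (adjusted p = 0.000293, 0.00948 and 0.04). Of the muscle markers Tnni2 was at 1.87 to 20.7 CPM and lower in stimulated libraries, while 3 of the 5 muscle markers were at 0 in each group, and its part here was not tested.

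Of the common isoforms, Cox6a1 was at 222, 208 and 229 CPM before and 247, 283 and 299.7 CPM after stimulation in wildtype, and 187, 186 and 191 CPM before and 253, 283 and 252 CPM after it in iNOS KO libraries. Cox6b1 was at 119, 114 and 125 CPM before and 128, 141 and 150.3 CPM after stimulation in wildtype, and 110.2, 106 and 109 CPM before and 165, 176 and 163 CPM after it in iNOS KO. Cox7a2 was at 88.3, 85.4 and 84.1 CPM before and 94.4, 93.7 and 99.5 CPM after stimulation in wildtype, and 83.1, 80.8 and 79.3 CPM before and 122, 125 and 120.3 CPM after it in iNOS KO. For both Cox6b1 and Cox7a2, stimulated iNOS KO libraries were the highest. Cox7b was at 73.7, 72.3 and 74.3 CPM before and 84.9, 95.5 and 99.97 CPM after stimulation in wildtype, and 70.9, 68.1 and 74.1 CPM before and 106, 90.3 and 110.3 CPM after it in iNOS KO, with the stimulated groups overlapping. No testis isoform (Cox6b2, Cox7b2, Cox8c) nor Cox8b had more than 1 count in any BMDM-labelled library.

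In RAW264.7 cells most subunits fell on stimulation in both genotypes. In wildtype cells 4 members rose and 33 fell, beside 18.5% and 19.2% of the 19569 genes tested, and in Akr1a1 KO cells 3 rose and 40 fell, beside 19.8% and 19.4%. Among well expressed protein-coding genes 32.4% rose and 28.9% fell in wildtype, with 1 and 28 of the 39 such members. In Akr1a1 KO cells these shares were 32.2% and 30.5%, with 0 and 34 of the 39. No subunit was called higher in either genotype (0 also at an unadjusted p under 0.05 and by DESeq2). With library totals, which moved the median of all genes by -0.23 in wildtype and -0.145 in Akr1a1 KO cells, the counts were 2 higher and 40 lower in each. Complex V had 14 of 17 and 15 of 17 subunits lower, complex III 8 of 9 in each, and complex IV 8 of 13 and 12 of 13. Without replicate B of the unstimulated wildtype group, whose title conflicts with its treatment field, 2 rose and 31 fell in wildtype, and without replicate B of the unstimulated Akr1a1 KO group 2 rose and 34 fell in Akr1a1 KO cells.

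Among members with a mean log2 CPM over 3 Atp5g2 fell most, from 142 and 152 CPM in unstimulated to 36.7 and 30.7 CPM in stimulated wildtype (-2.13 ± 0.15, adjusted p = 1.93e-05) and from 160.1 and 153 to 37.6 and 30.8 CPM in Akr1a1 KO cells (-2.20 ± 0.15, adjusted p = 1.69e-05). Atp5g3 went from 249.6 and 256 to 76.5 and 64.1 CPM in wildtype (-1.85 ± 0.13, adjusted p = 2.12e-05) and from 232 and 234 to 72.0 and 65.5 CPM in Akr1a1 KO cells. Atp5o went from 39.4 and 44.8 to 12.6 and 11.8 CPM in wildtype (-1.79 ± 0.15, adjusted p = 5.13e-05) and from 39.9 and 40.3 to 12.7 and 11.5 CPM in Akr1a1 KO cells. In each of these genes the stimulated and unstimulated libraries did not overlap, and the stimulated libraries of both genotypes did.

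Atp5g1 fell from 50.8 and 57.7 to 17.1 and 18.1 CPM in wildtype and from 37.9 and 48.4 to 14.6 and 11.7 CPM in Akr1a1 KO cells. Uqcrq went from 53.2 and 55.0 to 25.9 and 21.4 CPM in wildtype and from 65.0 and 54.0 to 14.5 and 14.5 CPM in Akr1a1 KO cells (-2.04 ± 0.16, adjusted p = 3.45e-05), the second largest fall in that genotype among genes with a mean log2 CPM over 3. Cox4i1 went from 331 and 353 to 136 and 118 CPM and from 364 and 327 to 135 and 117 CPM. Here Cox4i1, Atp5g1 and Uqcrq all fell in both genotypes, while in BMDM-labelled iNOS KO cells Cox4i1 and Uqcrq were called higher (Uqcrq was negative with library totals) and Atp5g1 was not called.

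The complex IV subunits that were called higher in the first experiment fell or were not called in RAW264.7 cells. Cox6a1 went from 179 and 177 to 121 and 119 CPM in wildtype and from 163 and 157 to 104 and 90.6 CPM in Akr1a1 KO cells. Cox6b1 went from 147 and 145 to 98.5 and 87.6 and from 133 and 142 to 81.4 and 79.2 CPM, and Cox7a2 from 93.4 and 98.6 to 73.1 and 63.7 and from 98.4 and 108 to 57.8 and 61.2 CPM. All 3 were called lower in both genotypes. Cox7b (92.1 and 103 to 86.1 and 74.9 CPM) and Cox8a (202 and 209.9 to 199.7 and 153 CPM) were not called in wildtype, but were in Akr1a1 KO cells (91.9 and 98.9 to 59.3 and 58.6 and 215 and 194 to 147 and 134 CPM). That the genotypes differ here was not called by the interaction test (adjusted p = 0.894 and 0.914).

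Cox19, Cox20, Uqcc1 and Cox14 were the members that rose in RAW264.7 wildtype, all of them assembly factors. Without replicate B of the unstimulated wildtype group Cox19 (1.01, adjusted p = 0.00835) and Cox20 (3.47, 0.0133) were still called, and Cox14 (0.48, 0.061) and Uqcc1 (0.50, 0.116) were not. The calls were the same without replicate A of that group, where the adjusted p of Cox14 was 0.209 and that of Uqcc1 0.113. Cox19 went from 17.0 and 22.1 to 34.6 and 34.1 CPM in wildtype (0.81 ± 0.17, adjusted p = 0.00572) and from 17.2 and 18.6 to 32.2 and 29.0 CPM in Akr1a1 KO cells (0.77 ± 0.17, adjusted p = 0.00707). Uqcc1 went from 25.2 and 25.4 to 38.7 and 32.6 CPM (0.49 ± 0.15, adjusted p = 0.0314) and from 23.8 and 23.6 to 37.1 and 31.8 CPM (0.54 ± 0.15, adjusted p = 0.0214). Cox14 went from 35.6 and 40.7 to 49.9 and 49.6 CPM in wildtype (0.38 ± 0.12, adjusted p = 0.0413) and was not called in Akr1a1 KO cells (40.1 and 38.3 to 44.1 and 41.7 CPM). Cox20 raw counts were 3 and 10 before and 29 and 50 after stimulation in wildtype, and 4 and 14 before and 46 and 33 after it in Akr1a1 KO. Among the falls in this class were Uqcc2 (-0.79 in wildtype) and Cox7a2l (-0.65).

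**Figure D5:**
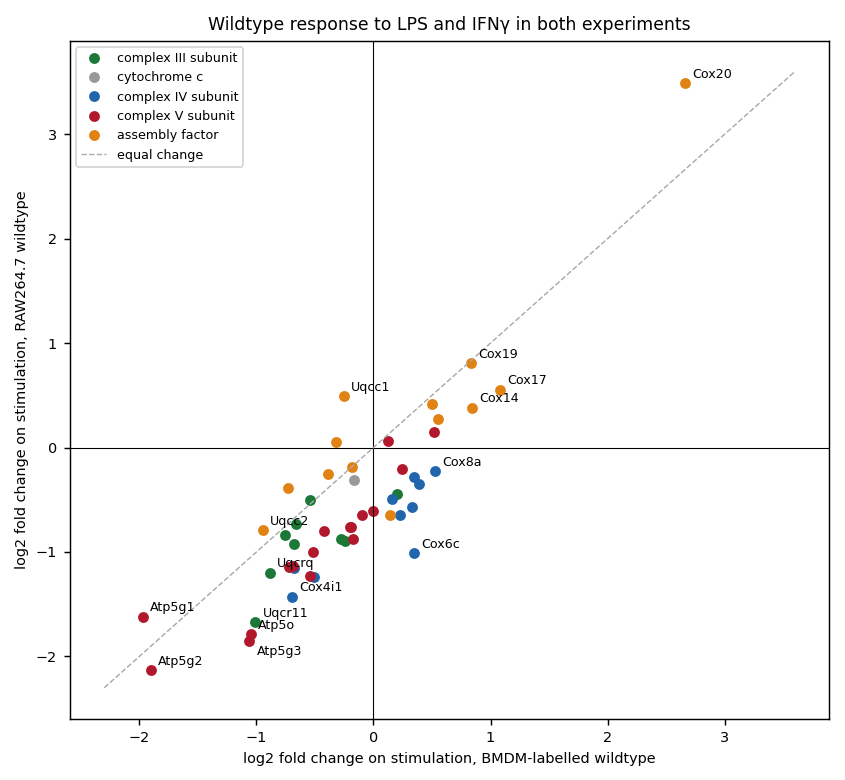
Log2 fold change on stimulation of each gene in wildtype BMDM-labelled cells (horizontal axis) and wildtype RAW264.7 cells (vertical axis), coloured by class, with the line of equal change dashed. The c-ring genes, Atp5o and Uqcr11 lie at the lower left, Cox19, Cox14 and Cox20 at the upper right, and complex IV subunits such as Cox8a and Cox6c at the lower right.

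The wildtype responses of the experiments share no library. Over the 54 members their log2 fold changes had a Pearson correlation of 0.61, given as a description over genes, which are not independent and include low ones. Of the 29 members lower in BMDM-labelled wildtype 79.3% were lower in RAW264.7 wildtype, beside 33 of all 54 members. Of the 33 lower in RAW264.7 wildtype 69.7% were lower in BMDM-labelled wildtype, beside 29 of all 54. Without replicate B of the unstimulated RAW264.7 wildtype group the correlation was 0.62 and the shares were 79.3% and 74.2%. Cox14, Cox19 and Cox20 were called higher in both. Cox6a1, Cox6b1, Cox6c, Cox7a2 and Uqcrh were called higher in BMDM-labelled wildtype and lower in RAW264.7 wildtype, though with library totals all 5 were negative in both. Between BMDM-labelled iNOS KO and RAW264.7 wildtype the correlation was 0.025 (0.053 without the same RAW264.7 library). Only 3 members fell in iNOS KO, so at most 3 falls could be shared. Of these 3, 2 were among the 33 RAW264.7 falls (2 among 31 without that library). The experiments were normalised separately and, if the first used BMDMs, differ in IFNγ dose, so no difference between them was tested.

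Akr1a1 KO against wildtype gave no call in any member. In stimulated cells 0 members were called, with 0 higher and 8 lower at an unadjusted p under 0.05 and 3 lower by DESeq2, beside 0.0869% and 0.199% of all genes tested. In unstimulated cells it was 0, with 1 higher and 4 lower at an unadjusted p under 0.05 and 1 higher and 1 lower by DESeq2, beside 0.230% and 0.353%. The interaction gave 0, with 0 higher and 3 lower at an unadjusted p under 0.05 and 0 by DESeq2, beside 0.00511% and 0.0153%. In stimulated cells 45 of 54 log2 fold changes were negative, with a median of -0.18 against 0.0051 over all genes tested. Uqcrq (-0.70 ± 0.16, adjusted p = 0.159), at 25.9 and 21.4 CPM in stimulated wildtype and 14.5 and 14.5 in stimulated Akr1a1 KO, and Uqcc2 (-0.90 ± 0.16, adjusted p = 0.104), at 29.0 and 31.5 CPM against 13.8 and 18.5 CPM, had the largest differences without overlap among genes with a mean log2 CPM over 3. In simulated counts with 2 libraries a group, 23 of 50 genes raised 2-fold were called and 1 of 50 raised 1.5-fold.

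The minor isoforms were low in RAW264.7 cells as well. Raw counts of Cox4i2 were 49 and 131 before and 30 and 37 after stimulation in wildtype, and 5 and 23 before and 10 and 10 after it in Akr1a1 KO, or up to 3.36% of the Cox4i sum in wildtype and up to 1.04% in Akr1a1 KO. For Cox6a2 they were 1 and 3 before and 1 and 5 after stimulation in wildtype, and 21 and 61 before and 0 and 7 after it in Akr1a1 KO, where it was called lower on stimulation (-3.05 ± 0.98, adjusted p = 0.0375). Both genotype differences missed the threshold in unstimulated cells (adjusted p = 0.0908 for Cox4i2 and 0.164 for Cox6a2). Cox7a1, called lower on stimulation in both genotypes, had raw counts of 36 and 118 before and 4 and 4 after stimulation in wildtype, and 30 and 60 before and 9 and 3 after it in Akr1a1 KO. Its share of the Cox7a sum was 4.34% to 4.71% in unstimulated and 0.62% to 0.713% in stimulated wildtype, with means of 4.53% and 0.666%, or 2.62% and 0.379% without division by gene length. The Atp5g3 share of the c-subunit sum was 54% ± 0.84 (SD, n = 2) in unstimulated and 57.6% ± 0.58 in stimulated wildtype.

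Genes of the same complexes that the symbol rule does not reach were read as a list beside the members. Of the 26 tested assembly factors outside the rule, stimulated iNOS KO cells had 6 at a higher and 9 at a lower level than stimulated wildtype, with a median log2 fold change of -0.086, beside the 24.2% of all genes and the 38% and 33.6% of well expressed genes called higher and lower. Higd1a (-1.14 ± 0.076, adjusted p = 1.77e-09), Coa4 (-1.49 ± 0.20, adjusted p = 8.16e-06), Smim20 (-0.88), Tmem177 (-0.66), Coa8 (-0.60), Atpaf2 (-0.37), Higd2a (-0.32), Coa3 (-0.31) and Tmem242 (-0.28) were the lower ones. Fmc1 (0.61), Hccs (0.59), which attaches haem to cytochrome c, Cmc2 (0.53), Coa7 (0.50), Ttc19 (0.35) and Lrpprc (0.31) were the higher ones. Higd1a was at 28.0 to 29.2 CPM in unstimulated wildtype, 71.8 to 80.2 in stimulated wildtype and 33.2 to 37.3 in stimulated iNOS KO libraries.

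Atpif1, the inhibitor of ATP synthase running in reverse, went in the direction of the complex V subunits. It was at 70.4 to 75.0 CPM in unstimulated wildtype, 28.8 to 30.3 in stimulated wildtype, 63.7 to 67.1 in unstimulated iNOS KO and 62.1 to 68.2 in stimulated iNOS KO, and its log2 fold change between stimulated genotypes was 1.12 ± 0.070 (adjusted p = 6.99e-10). In RAW264.7 cells it fell on stimulation, with log2 fold changes of -2.02 in wildtype and -2.66 in Akr1a1 KO cells.

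Among 13 tested regulators of respiratory genes, stimulated iNOS KO cells had 4 at a higher and 3 at a lower level than wildtype, shares near the 24.2% of all genes called in each direction. The higher ones were Pprc1 (0.95), a coactivator of the PGC-1 family, Gabpb1 (0.71), a subunit of an ETS-family factor, Tfam (0.65), the mitochondrial transcription factor, and Ppargc1b (0.42). The lower ones were Cxxc5 (-2.84), Nrf1 (-0.78), the gene of the factor whose motif letters are marked above, and Lonp1 (-0.27), a mitochondrial protease.

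Ndufa4 and its paralog AA467197 encode alternative subunits found in complex IV. AA467197 was at 0 CPM in all unstimulated wildtype libraries, 30.8 to 31.2 CPM in stimulated wildtype and 24.0 to 30.5 CPM in stimulated iNOS KO, and between stimulated genotypes its log2 fold change was -0.18 ± 0.12 (adjusted p = 0.24). Ndufa4 was at 92.6 to 94.7 CPM in unstimulated wildtype, 70.4 to 89.0 in stimulated wildtype and 78.9 to 84.6 in stimulated iNOS KO. AA467197 so reached 28.7% to 33.5% of the summed CPM per kb of the pair in stimulated wildtype. In RAW264.7 cells AA467197 was at 0.074 and 2.65 CPM in stimulated wildtype and 8.44 and 20.9 CPM in stimulated Akr1a1 KO, a difference that was not called (adjusted p = 0.347). Ndufa4l2 was at most at 0.169 CPM in any library.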

How the data were processed

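RNA-seq libraries were made from poly A enriched RNA, and the submitters' processing notes name CASAVA, STAR and the mouse build mm10. The deposited values are raw counts per gene, as 2 tables made by the authors, 1 for each experiment (12 and 8 libraries). Whether reads were counted by strand is not given in the sources used here. Of the 59 members 26 overlap another gene, and 15 pseudogene rows carry a member's name, so reads of close copies may be split. For 17 members the overlap is with another protein-coding gene. On the opposite strand in the BMDM-labelled libraries, Gabpa held 11834 counts against 15376 for Atp5j, and Vps13b 16034 against 16288 for Cox6c.

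Counts were fitted here with edgeR 4.0.16 in R 4.3.3, using TMM factors, genes with at least 10 counts in a table, 1 mean per group, all libraries of an experiment and the quasi-likelihood test. Adjusted p-values are Benjamini-Hochberg values over all genes tested, two-sided, with a threshold of 0.05 and no fold limit. CPM values use TMM-scaled library sizes. DESeq2 1.42.0 served as an alternative, and other alternatives changed the scaling, the filter, a fold limit of 1 on the log2 scale, the groups fitted, the replicate block and the libraries, and a block within genotype was added after seeing the data. Tables and figures were made in Python 3.11.15 with pandas 2.3.3 and matplotlib 3.10.9. Promoter windows came from RefSeq (GRCm38.p6).

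Genes named with full values were the 3 called members with the largest change in each direction in each comparison, provided that log2 CPM averaged above 3 and the groups' libraries did not overlap, and members of isoform groups with at least 10 counts. Others named were chosen after their values were seen. The members, classes and gene lists were chosen with earlier results of these data known. Replicates are separate libraries (independent clones in RAW264.7 cells per the methods, although no source ties the letters to clones), and p-values measure the spread between them, which may be partly technical. The test was checked on simulated data, where 49 of 50 genes raised 2-fold were called at 3 libraries a group and 23 of 50 at 2.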

Additional observations from a re-analysis of the deposited data

Results flagged for a closer look

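For 34 members the response to stimulation differed between iNOS KO and wildtype BMDM-labelled cells by the interaction test (adjusted p under 0.05, edgeR's quasi-likelihood test), which is what brought them here. The values are log2 differences, positive where iNOS KO changed upwards relative to wildtype. In complex V they were 1.99 for Atp5g1, 1.84 for Atp5g2, 1.27 for Atp5o, 1.2 for Atp5g3, 0.936 for Atp5h, 0.849 for Atp5k, 0.683 for Atp5mpl, 0.676 for Atp5e, 0.562 for Atp5j, 0.508 for Atp5l, 0.475 for Atp5a1, 0.47 for Atp5c1, 0.444 for Atp5j2 and 0.28 for Atp5b. In complex III they were 1.1 for Uqcrq, 0.856 for Uqcrb, 0.813 for Uqcr11, 0.761 for Uqcrc1, 0.497 for Uqcrc2, 0.434 for Uqcrfs1, 0.433 for Uqcr10 and 0.43 for Cyc1, and Cycs was at 0.797. In complex IV they were 1.23 for Cox4i1, 0.945 for Cox5b, 0.883 for Cox7c, 0.435 for Cox7a2 and 0.409 for Cox6b1, with Cox5b-ps at 1.26. Among assembly factors Cox7a2l was at 0.679 and Cox18 at 0.335, while Cox14 was at -0.415, Cox17 at -0.756 and Cox20 at -3.03, the last on 1 to 47 raw counts a library. Replicate B of the stimulated iNOS KO group stood apart, and without it 33 members were positive and 4 negative. Groups of 2 and 3 libraries were too small to look for single outlying values.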

How the results depend on the processing

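Over the 54 tested members in 10 comparisons, 4179 of 4366 values under another test, scaling, filter, gene set, fit or block kept direction and side of the threshold, 69 lost and 90 gained a call and 28 turned sign. All 28 turned with library totals in place of TMM factors, and the cause was not tested. On stimulation in wildtype BMDM-labelled cells these were Atp5d -0.221, Atp5pb -0.34, Cox5a -0.0725, Cox6a1 -0.132, Cox6b1 -0.239, Cox6c -0.117, Cox7a2 -0.305, Cox7a2l -0.321, Cox7b -0.116 and Uqcrh -0.263 (log2 fold change). In iNOS KO cells they were Atp5b -0.236, Atp5c1 -0.372, Atp5d -0.128, Atp5g1 -0.402, Atp5g3 -0.278, Atp5h -0.208, Atp5j -0.0274, Atp5j2 -0.176, Atp5o -0.197, Atp5pb -0.239, Cox11 -0.322, Cox18 -0.4, Cox6c -0.028, Uqcr10 -0.226, Uqcrc1 -0.415, Uqcrfs1 -0.262, Uqcrh -0.106 and Uqcrq -0.201. With library totals 4 members were higher on stimulation in wildtype, 4 higher and 26 lower in iNOS KO, 0 lower in unstimulated iNOS KO against wildtype, and 2 higher in RAW264.7 wildtype. A limit of 1 on the absolute log2 fold change, which by construction keeps fewer members, left 3 higher and 7 lower in BMDM-labelled wildtype, 0 and 0 in iNOS KO, 4 and 1 between stimulated genotypes, 0 lower between unstimulated ones, 7 and 1 for the interaction, 1 and 16 in RAW264.7 wildtype and 1 and 22 in Akr1a1 KO. With the compared groups fitted alone, 3 members were lower in stimulated and 14 in unstimulated iNOS KO against wildtype, 2 were higher on stimulation in RAW264.7 wildtype, and 1 was higher in unstimulated Akr1a1 KO. Without the filter on low counts 5 were lower in unstimulated iNOS KO, 2 higher in stimulated RAW264.7 wildtype, 3 lower in stimulated Akr1a1 KO, and 1 higher and 2 lower in unstimulated Akr1a1 KO. DESeq2 gave 3 lower in stimulated and 1 higher and 1 lower in unstimulated Akr1a1 KO.

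With each library left out in turn, members higher and lower ran from 12 to 19 and 26 to 32 for stimulation in BMDM-labelled wildtype, 22 to 29 and 2 to 6 in iNOS KO, 26 to 31 and 5 to 7 between stimulated genotypes, 0 and 0 to 16 between unstimulated ones, and 28 to 33 and 2 to 4 for the interaction. In RAW264.7 cells they ran from 2 to 4 and 31 to 35 in wildtype and 1 to 3 and 34 to 40 in Akr1a1 KO, and the genotype comparisons and the interaction stayed at 0. For unstimulated iNOS KO the count was 4 without stimulated wildtype A and 2 without C. In RAW264.7 wildtype 2 were higher without each unstimulated library, and in Akr1a1 KO 1 was without its unstimulated replicate A.

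No source says that the letters pair the libraries. Same-lettered libraries had correlations of their deviations from -0.285 to 0.4 in the BMDM-labelled table and 0.434 and 0.215 within wildtype and Akr1a1 KO RAW264.7 cells and -0.153 and -0.0758 between these genotypes, stimulated and unstimulated, over 2 letters. With the replicate block, members higher and lower were 16 and 29 in wildtype, 26 and 3 in iNOS KO, 30 and 6 between stimulated genotypes, 0 and 1 between unstimulated ones and 30 and 4 for the interaction, and in RAW264.7 cells 3 and 33, 3 and 40, and 0 in the others. The study's methods call the RAW264.7 replicates independent clones without tying letters to them, and a replicate block within genotype was added after seeing the data, in which the genotype comparisons could not be fitted. It gave 4 and 35 in wildtype, 4 and 41 in Akr1a1 KO and 0 for the interaction. Cyc1 was then called lower in both genotypes (-0.534, adjusted p = 0.00659, and -0.662, adjusted p = 0.00148), Cox17 higher in both and Cox15 lower in wildtype, and Cox14 in wildtype lost its call (adjusted p = 0.0548).

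Of class medians 177 of 200 moved by less than the spread, and 37 of 72 isoform shares moved when CPM were not divided by gene length. Depth limits Cox20, Cox4i2, Cox6a2 and Cox7a1, which had at most 47 counts in a BMDM-labelled library.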
